A study of Saccharomyces cerevisiae with 16 samples.

Results

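The mitochondrial genome of yeast was followed outside its rRNA genes through 16 PSI-seq libraries, a method in which reads mark the places where reverse transcription stopped. The genes of 15S rRNA (6546 to 8194) and 21S rRNA (58009 to 62447) were left out, with a few nt on either side. The positions studied were all others listed on the mitochondrial genome. No read count chose among them, though the listing itself may depend on reads. They numbered 10769 of the 5704895 positions listed for the series, from position 5 to position 85743 of sacCer3, and 103 of them had 20 or more reads in the 8 libraries of natural RNA, against 445182 in the whole series. The 16 libraries held 40267 reads at these positions, 22677 of them in natural RNA, and 79.4% of the natural reads came from the 2 libraries labelled stationary. At 3686 of the positions no natural read was found, and at 3103 there was 1.

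All RNA came from strain BY4741, which lacks LEU2, MET17 and URA3 and part of HIS3, grown in YPD. Each of 2 cultures was divided in log phase, at an OD of 0.8 by the labels. One part of each was harvested at once, and the rest was either heat shocked at 45 °C for 30 min or taken on to stationary phase, at an OD of 4. The 4 resulting RNAs are called here by the labels of their columns, pre-heat shock and pre-stationary (both log phase), heat shock and stationary. Each gave 4 libraries. Natural RNA was selected for poly(A), and in vitro transcribed (IVT) RNA was amplified from total RNA and carries no pseudouridine. Each of these was treated with 200 mM CMCT (+CMCT), which leaves a stop at pseudouridine, or mock treated (-CMCT). Log phase had 2 libraries of each kind, and heat shock and stationary had 1 each, so neither of these has a replicate of its own.

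The labels of the heat shock culture did not hold in these counts. The 6 heat shock transcripts HSP26, HSP12, HSP104, SSA4, HSP42 and HSP82 together took 22366 to 29774 CPM, the read count scaled to a fixed library total, in 3 of the 4 libraries labelled pre-heat shock, the exception being IVT -CMCT at 655. In all 4 libraries labelled heat shock they took 658 to 1108 CPM, within the range of the libraries labelled pre-stationary apart from 1 value below it, and those ran from 720 to 1180. The transcripts of 4 ribosomal protein genes, RPL3, RPS3, RPL28 and RPP0, went the other way, with 905 to 1110 CPM in the same 3 libraries, 7190 in the exception, and 7184 to 9535 in those labelled heat shock. They were at 592 to 1058 in the libraries labelled stationary and at 8050 to 8751 in those labelled pre-stationary. The labels were kept as given, no library was moved to another group, and shares and bins that rest on this culture are given with and without it. Fits by gene include it throughout. Reads in LEU2, MET17 and URA3 were absent from 15 of the 16 libraries, and the library labelled heat shock, natural -CMCT, had 6 in LEU2 and 6 in MET17.

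Yeast mitochondria transcribe a compact set of genes from long precursors. These encode subunits of the respiratory complexes and of ATP synthase, the ribosomal protein Var1, 2 rRNAs, 24 tRNAs and RPM1, the RNA of the mitochondrial RNase P that trims the 5′ ends of tRNAs. COX1 and COB hold introns, several of which carry reading frames for proteins that help splicing or spread the intron. The mature mRNAs of yeast mitochondria end at a cut site behind the reading frame and are not known to carry poly(A) tails. In glucose the yeast ferments, and expression of the respiratory genes is known to be repressed until the sugar is used up. The counts carry no strand and no base, and the annotation used gives whole gene spans, so a span of COX1 or COB includes its introns and no sequence is printed.

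In natural -CMCT RNA, the positions outside rRNA held 0.00804% of all reads in the library labelled pre-heat shock, 0.00756% in pre-stationary, 0.0137% in heat shock and 0.0768% in stationary. The corresponding natural +CMCT values were 0.00707%, 0.00621%, 0.00695% and 0.0560%. The stationary libraries stood above the rest in both, and the library labelled heat shock exceeded the log-phase libraries without CMCT but lay between them with it. IVT -CMCT RNA held 0.0158%, 0.0158%, 0.0199% and 0.0302%, and IVT +CMCT RNA 0.0239%, 0.0262%, 0.02% and 0.0385%, in the same order. The IVT values of the 3 other experiments all exceeded their natural values, whereas in the stationary experiment both natural libraries exceeded both IVT libraries. Totals ranged from 3925245 to 25759455 reads per library. Nuclear rDNA took 12.8% to 24.9% of natural reads and 1.90% to 3.54% of IVT reads.

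**Figure D1:**
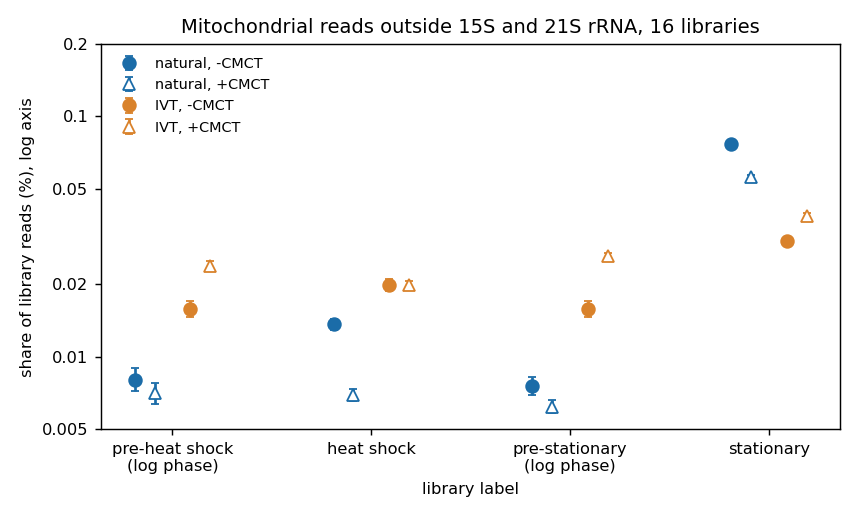
Share of each library's reads at mitochondrial positions outside 15S and 21S rRNA (%, log axis), for the 16 libraries by label; points are single libraries and bars are 95% Wilson intervals, which cover counting error only. The natural stationary libraries lie at 0.0768% and 0.0560%, above all the others, and the natural libraries of the other labels lie below their IVT libraries.

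Averaged over +CMCT and -CMCT on the log2 scale, natural RNA held 0.388 of the IVT share in the pre-heat shock experiment, 0.337 in pre-stationary, 0.489 in heat shock and 1.92 in stationary. The mean difference over the 4 experiments was -0.76 on the log2 scale (two-sided exact permutation test, n = 4 and 4, p = 0.4, where 0.0286 is the smallest p possible), with natural RNA higher in 1 of 4, so it did not exceed the spread between experiments. Without the stationary experiment it was -1.32, lower in 3 of 3, at the smallest p that 3 against 3 allow (exact p = 0.1). Without both experiments of the culture labelled heat shock it was -0.31, from 2 against 2. With CMCT the share in natural RNA was lower in 4 of 4 experiments, at 0.879, 0.822, 0.508 and 0.729 of the -CMCT share for pre-heat shock, pre-stationary, heat shock and stationary. In IVT RNA it was higher with CMCT in 4 of 4, at 1.51, 1.65, 1.01 and 1.28 times (exact two-sided sign-flip test in each, p = 0.125, the smallest that 4 pairs allow). The IVT libraries labelled pre-heat shock were unlike in heat shock transcripts, at 29774 CPM with CMCT and 655 without. The ratio of 1.51 and the value of 0.388 above therefore rest on a pair that may not be parts of 1 RNA. The natural -CMCT library labelled pre-heat shock, at 22366 CPM, was likewise unlike the IVT -CMCT one. Natural to IVT ratios of this experiment below, and its block in the fits by bin and gene, may thus pair unlike RNAs.

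The share of stationary natural -CMCT reads was 10.2 times that of the pre-stationary sample of the same culture (95% counting interval 9.25 to 11.2), and 9.01 times with CMCT. With positions whose counts equalled those of another position left out, the ratio without CMCT was 21.7 times. This also took reads out of the library totals, and the shares became 0.322% in stationary and 0.0148% in pre-stationary. Bulk RNA does not tell more cells with a transcript from more of it per cell. The IVT -CMCT shares of the same cultures differed by 1.91 times (1.75 to 2.08). The mitochondrial rRNA spans, outside the set described here, moved further in the same libraries, by 23.5 times. The library labelled heat shock held 1.70 times the share of the one labelled pre-heat shock (1.51 to 1.92) without CMCT and 0.983 times with it, and with the tRNA genes left out 1.35 times without CMCT. This ratio compares labels that the heat shock transcripts contradict.

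Levels by gene, in natural -CMCT RPKM (CPM per kb of the annotated span), separated the genes that were higher in the stationary library from those that were not. COX1, the large catalytic subunit of cytochrome c oxidase (complex IV), stood at 2.39 in the library labelled pre-heat shock, 2.10 in pre-stationary, 2.43 in heat shock and 31.9 in stationary. OLI1, the ring subunit of ATP synthase, stood at 19, 27.4, 41.9 and 183 in the same order, the highest level of any protein gene in every one of the 4 libraries. COB, the cytochrome b of complex III, was at 0.241, 0.551, 1.14 and 3.95. For each of these 3 genes the stationary library was the highest of the 4.

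VAR1, the ribosomal protein of the mitochondrial small subunit, was at 0.612, 0.252, 0.786 and 8.24 RPKM, and the stationary value rested on 46 reads against 2 to 10 elsewhere. RPM1 had 0 reads in the library labelled pre-heat shock, 2 in pre-stationary and 6 in heat shock, and 51 in stationary (22.6 RPKM). The stationary level of RPM1 was 36.3 times the pre-stationary one (9.55 to 308), a wide interval that rests on those 2 reads. COX2 and COX3, the other catalytic-core subunits of complex IV, and ATP6, a membrane subunit of ATP synthase, did not share this pattern without CMCT. COX2 was at 1.94, 2.39, 3.73 and 3.12, COX3 at 0.603, 1.67, 3.95 and 2.38, and ATP6 at 0.940, 1.16, 1.69 and 1.10, and for all 3 the library labelled heat shock was the highest. ATP8, a short ATP synthase subunit, had 1 read in each log-phase library and 0 in the other 2.

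**Figure D2:**
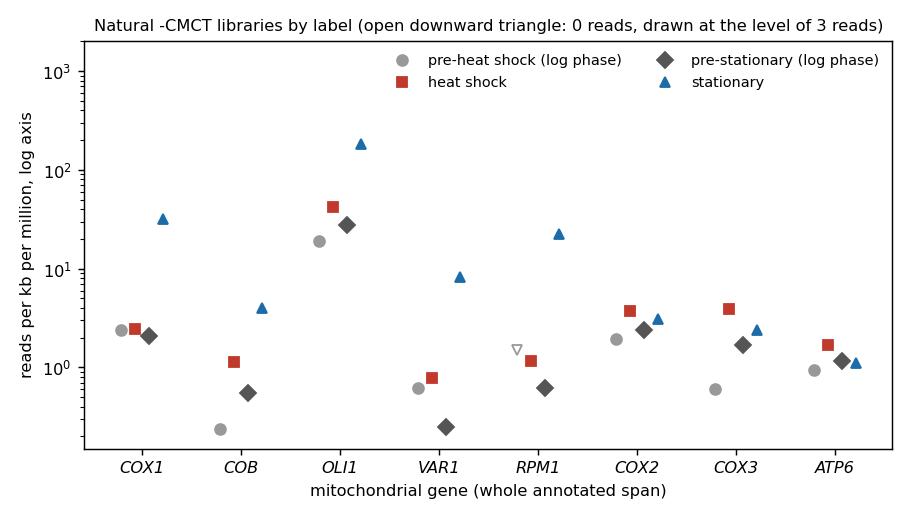
RPKM over the annotated span (reads scaled to the library total and to kb, log axis) for 8 mitochondrial genes in the 4 natural -CMCT libraries; each point is 1 library. The stationary library is highest for COX1 (31.9), COB (3.95), OLI1 (183), VAR1 (8.24) and RPM1 (22.6), and the library labelled heat shock for COX2, COX3 and ATP6.

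The counting intervals of the stationary over pre-stationary ratio followed the same division. The ratio was 15.2 for COX1 (13.0 to 17.8), 7.18 for COB (4.69 to 11.4), 6.68 for OLI1 (4.77 to 9.56) and 32.8 for VAR1 (8.57 to 279). The interval spanned 1 for COX2, at 1.31 (0.522 to 3.23), for COX3, at 1.42 (0.501 to 4.05), and for ATP6, at 0.95 (0.197 to 4.01). With CMCT, from deeper libraries, the ratio for COX2 was 8.50 (2.73 to 42.8) and that for ATP6 3.04 (1.03 to 12.2), so for these 2 genes the interval spanned 1 only without CMCT. COX3 had 35 reads in stationary +CMCT RNA and 0 in pre-stationary, at least 6.76 times higher against a floor of 3 reads. In edgeR's quasi-likelihood test over 6317 genes, stationary against the 2 libraries labelled log phase, 1 of which carries the heat shock transcripts, no gene of either genome passed an adjusted p of 0.05 (0% called in either direction), while 509 genes (8.06%) were higher and 312 (4.94%) lower at an unadjusted p under 0.05. Fitted log2 differences were 4.84 for COX1 (SE 1.01), 4.30 for COB (SE 0.66), 3.99 for OLI1 (SE 0.62), 5.30 for VAR1 (SE 0.83) and 6.80 for RPM1 (SE 1.00), with adjusted p of 0.257, 0.186, 0.187, 0.189 and 0.186. RPM1 passed the minimum of 10 reads only through the stationary library, so it was bound to be higher there. The ratios to the pre-stationary sample above leave the library labelled pre-heat shock out. DESeq2 called 111 genes (1.76%) higher and 76 (1.2%) lower. It gave an adjusted p for 7 of the 28 mitochondrial genes tested and called these 7 higher, OLI1 at 4.01 (adjusted p = 0.00201), COX1 at 4.86 (adjusted p = 3.6e-06) and 5 reading frames that lie within COX1 and share its reads. Against the log-phase libraries the library labelled heat shock gave fitted differences of 0.10 for COX1, 1.49 for COB and 0.84 for OLI1, none of them called. It called 0 of 6317 genes (0%), with 28 higher and 3 lower at an unadjusted p under 0.05 (DESeq2 11 and 58, and none after adjustment).

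The same comparison by 500-nt bins placed the stationary reads along the genome. Of the 162 bins listed, 94 had a higher CPM in the stationary natural -CMCT library than in both log-phase libraries, and 43 had no read in either log-phase library. In the fit over 23504 bins, 524 bins (2.23%) were called higher in stationary and 137 (0.583%) lower. Of the 91 mitochondrial bins tested, 26 were called higher and none lower, by DESeq2 12 and none (3.8% and 3.18% of all bins). With +CMCT and -CMCT reads summed, 56 of 123 were higher and none lower (9.71% and 7.95% of all bins). With a minimum of 50 reads none of 25 was called, nor any of 18000 in all. Most of the 25 reached that minimum only through the stationary library, so the filter itself favoured higher values there. However, 28 of the 91 passed the minimum of 10 reads only through the stationary library, so they were bound to be higher there, and 17 of the 26 called had 10 reads or more without it. Of the 26, 14 lay in the COX1 span and 6 held no annotated gene. The lone stationary library was assumed to vary as the log-phase ones do, and 1 of those is a library whose label the heat shock transcripts contradict. With either log-phase library alone, the median over the 91 bins was 2.57 (pre-heat shock kept) and 2.68 (pre-stationary kept), against -0.32 and -0.31 over all bins. Heat shock against log phase called 0 of 23504 bins (0%), with 55 higher and 125 lower at an unadjusted p under 0.05, of which 6 and none were mitochondrial (DESeq2 also called none).

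COX1 (13818 to 26701) held the most reads outside rRNA of any gene, 38.3%, 35.9%, 22.9% and 53.6% in natural -CMCT RNA for pre-heat shock, pre-stationary, heat shock and stationary. In IVT -CMCT RNA it held 63.9%, 65.1%, 59.2% and 57.7%. The span was cut at the ends of its intron reading frames, which the annotation starts at the first base of COX1, to see where reads lay within it. AI1 and AI2 are the reverse transcriptase maturases of the first introns, AI3, AI4 and AI5_ALPHA the endonuclease-type frames of later ones, and AI5_BETA a frame near the end. Between pre-stationary and stationary natural -CMCT RNA, the stretch from the start of COX1 to the end of AI1 went from 26 reads to 500, a ratio of 27.4 (18.5 to 42.4). From the end of AI5_BETA to the end of COX1 it went from 27 reads to 613, a ratio of 32.3 (22.0 to 49.5). The stretches between them gave 3.82 to the end of AI2, 20.9 to AI3 (44 reads against 3, 6.70 to 105), 7.54 to AI4, 11.1 to AI5_ALPHA and 11 to AI5_BETA. With CMCT the stretch to the end of AI2 gave 39.0 (17.8 to 107) and that to AI3 126 from 1 pre-stationary read (22.4 to 4993), against 33.7 (24.8 to 47.1) and 33.4 (24.4 to 46.8) at the ends. The ends had the highest ratios without CMCT alone, and there the interval to AI3 overlapped both.

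The bins showed the 2 ends in single libraries. In bin 26001 to 26500 the natural -CMCT libraries held 6, 11, 38 and 275 reads (pre-heat shock, pre-stationary, heat shock, stationary), which is 1.47, 1.66, 3.57 and 59.0 CPM (stationary over log phase 6.23 on the log2 scale, SE 0.92, adjusted p = 0.0222). In bin 13501 to 14000, which holds the start of COX1, they held 6, 23, 16 and 257 reads, or 1.47, 3.46, 1.5 and 55.1 CPM (5.46, SE 0.93, adjusted p = 0.0288). In bin 14001 to 14500 there were 1, 7, 5 and 153 reads (6.52, SE 0.96, adjusted p = 0.0218). The stationary library was far above the other 3 in each. These fitted differences use TMM and the CPM use library totals, so the scales differ. With library sizes alone, the median stationary difference over the 91 mitochondrial bins was 2.23 in place of 3.23. Bins 25001, 25501, 22001 and 23501 within COX1 were also among the 10 mitochondrial bins with the highest natural -CMCT level, with fitted stationary differences of 4.85 to 6.11.

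**Figure D3:**
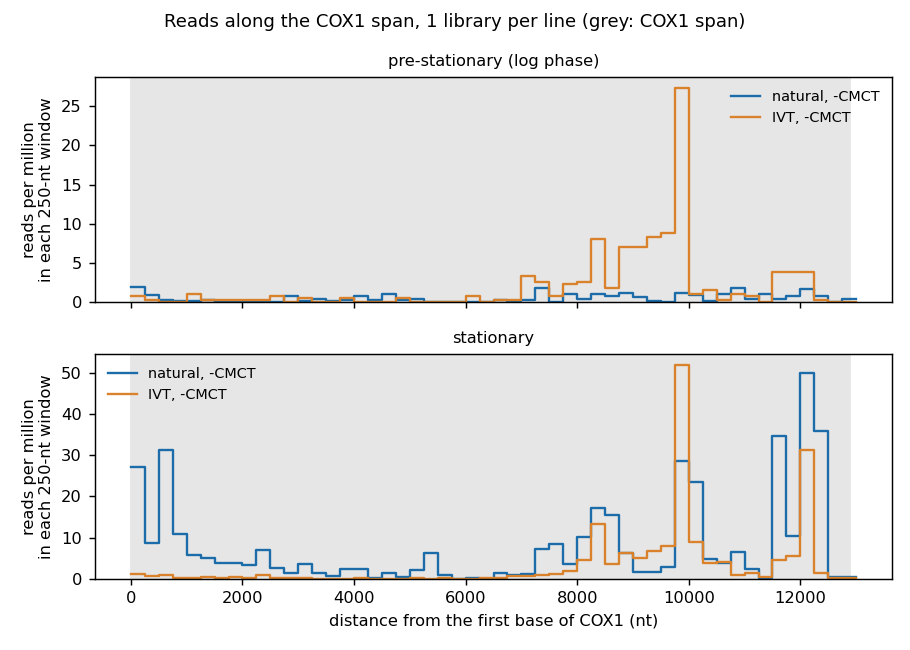
CPM in 250-nt windows along the COX1 span, by distance from its first base (nt), in pre-stationary and stationary -CMCT libraries; blue is natural RNA, orange is IVT RNA, and each line is 1 library. The stationary natural library has peaks at both ends of the span and within it, with 28.5 CPM in the window that starts 9750 nt from the first base. In both panels the IVT line is highest in that same window.

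Natural and IVT RNA differed along COX1 in a position-dependent way. Over the whole span, natural -CMCT RNA held 0.305 (0.248 to 0.374), 0.263 (0.219 to 0.314) and 0.266 (0.233 to 0.304) of the IVT level in the experiments labelled pre-heat shock, pre-stationary and heat shock, and 2.36 times (2.22 to 2.51) in stationary. In the stretch up to the end of AI1 the same 3 ratios were 1.08, 1.19 and 1.33, each with an interval that spanned 1, and 20.5 in stationary (16 to 26.7). In the stretch that ends at AI5_ALPHA they were 0.171, 0.141 and 0.125, and 1.42 in stationary. In that which ends at AI5_BETA they were 0.556, 0.146, 0.280 and 0.867. Relative to IVT RNA, natural RNA thus held fewer reads in these later stretches than at the start of the gene in each experiment. Exons and introns are not separated in them. The last stretch, behind AI5_BETA, held 2.53, 2.81 and 4.36 natural RPKM against 5.64, 8.06 and 7.31 IVT RPKM, and 90.9 against 30.2 in stationary. The stretches that end at AI2 and AI3 were lower in natural RNA in pre-heat shock and heat shock and higher in pre-stationary and stationary.

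Of the 121 mitochondrial bins tested for natural against IVT RNA in the -CMCT libraries (edgeR, experiment as block), 6 were higher and 3 lower at an adjusted p under 0.05, 4.96% and 2.48%, where 2.45% and 4.78% of the 23904 bins of both genomes were called. Over both directions the share of calls was close to that background. Of the 6 higher bins, 3 passed the minimum of 10 reads only through the natural library in which they were high. All 3 lower bins were neighbours in COX1, 22501 to 24000. Bin 23001 to 23500, across the end of AI5_ALPHA, held 8, 3, 16 and 18 natural reads against 66, 76, 110 and 218 IVT reads for pre-heat shock, pre-stationary, heat shock and stationary. That is 1.95, 0.452, 1.5 and 3.86 CPM against 16.8, 19.2, 19.7 and 16.1, without overlap and lower in 4 of 4 experiments (-3.37 on the log2 scale, SE 0.46, adjusted p = 3.3e-05). It was called in 10 of 11 alternatives, all but the one without the block, and the log2 difference ran from -4.03 to -2.88. Bin 22501 to 23000 gave -2.12 (adjusted p = 0.0078) and bin 23501 to 24000 gave -1.98 (adjusted p = 0.0158), and in both the stationary library was not lower to the same degree, with 10.5 against 10.3 and 47.0 against 58.4 CPM. Both of these calls were lost without the heat shock or without the pre-stationary experiment.

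Among the 6 higher bins, 46001 to 46500 holds no annotated gene and lies just before OLI1. It had 19, 32, 70 and 61 natural reads (4.64, 4.82, 6.58 and 13.1 CPM) against 1, 3, 18 and 47 IVT reads (0.255, 0.760, 3.23 and 3.46). Natural RNA was higher in 4 of 4 experiments without overlap (2.04, SE 0.43, adjusted p = 0.0032), and the call was lost without the stationary experiment. Bin 47001 to 47500, just behind OLI1, had 1.71, 0.602, 2.07 and 24.2 CPM against 0, 0.506, 0.538 and 1.25 (3.52, SE 0.66, adjusted p = 0.0012), a call also lost without stationary. Bin 14001 in COX1 (4.12, adjusted p = 0.0012) and bin 19001 in COX1 (4.79, adjusted p = 0.0115) were called through the stationary library, with natural values of 0.244, 1.05, 0.470 and 32.8 and of 0.244, 0, 0.188 and 7.72 CPM. The bin that ends at 7000, of which only the stretch before 15S rRNA was counted, had 20 natural reads in stationary and 1 or 2 in the others. It and bin 19001 passed the minimum only through the stationary natural library. Bin 77001 to 77500 holds the tRNA gene tF(GAA)Q and passed the minimum only through the natural library labelled heat shock (4.05, SE 1.09). DESeq2 did not call the last 2 of these bins, nor bin 19001. Without the stationary experiment, 1 of 99 bins was higher, 77001, and 8 were lower, all in COX1 between 20501 and 26000, where 2.04% and 3.48% of all bins were called. Without both experiments of the culture labelled heat shock, 12 of 81 were higher and 2 lower, where 1.05% and 2.63% of all bins were called.

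By gene, 29 mitochondrial genes were tested for natural against IVT RNA and 1 was called higher and 0 lower, where 6.23% and 7.38% of the 6355 genes of both genomes were called. The gene called was tF(GAA)Q (4.57, SE 1.38, adjusted p = 0.0475). It passed the minimum of 10 reads only through the natural library labelled heat shock, and DESeq2 did not call it (1.87, adjusted p = 0.742). At an unadjusted p under 0.05, 6 mitochondrial genes were higher and 0 lower by edgeR (841 and 992 of all 6355 genes). By DESeq2 4 were higher and 2 lower (1033 and 1122 of all genes). RPM1 gave 2.76 (SE 0.91, adjusted p = 0.062), OLI1 0.78 (SE 0.33, adjusted p = 0.137), COX3 1.79 (SE 0.80, adjusted p = 0.161) and COX1 -1.31 (SE 0.61, adjusted p = 0.177). With library sizes in place of TMM, which moved the median of all genes from -0.004 to -0.43, COX1 at -1.68 (adjusted p = 0.0234) and VAR1 at -1.74 (adjusted p = 0.0064) passed. The differences for COX2, COB and ATP6 did not pass and changed sign with the +CMCT and -CMCT reads summed.

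Around OLI1 (46723 to 46953) the reads did not stop at the end of the reading frame. In the 100 nt behind it, natural -CMCT RNA held 39.1, 12.0, 39.5 and 712 RPKM in the order pre-heat shock, pre-stationary, heat shock and stationary, from 16, 8, 42 and 332 reads. The stationary over pre-stationary ratio of this stretch was 59.1 (29.7 to 138), where OLI1 itself gave 6.68 (4.77 to 9.56), and the 2 intervals do not overlap. With CMCT the ratio was 19.9 (13.8 to 29.6) against 6.12 (4.82 to 7.88) for OLI1. In IVT -CMCT RNA it was 2.26 (1.23 to 4.52) against 2.73 (1.82 to 4.27). The 50-nt window that begins at the last base of OLI1 held 233 stationary natural -CMCT reads, the next one 103, the third 2 and the one after that 1, and the windows past it 0. In the 3 other natural -CMCT libraries no read was found in any window from 100 to 299 nt. The bin that holds OLI1, 46501 to 47000, had the most natural reads of all mitochondrial bins in every natural library, with 35, 67, 167 and 580 -CMCT reads (8.55, 10.1, 15.7 and 124 CPM; stationary over log phase 4.74 on the log2 scale, SE 0.91, adjusted p = 0.0336).

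**Figure D4:**
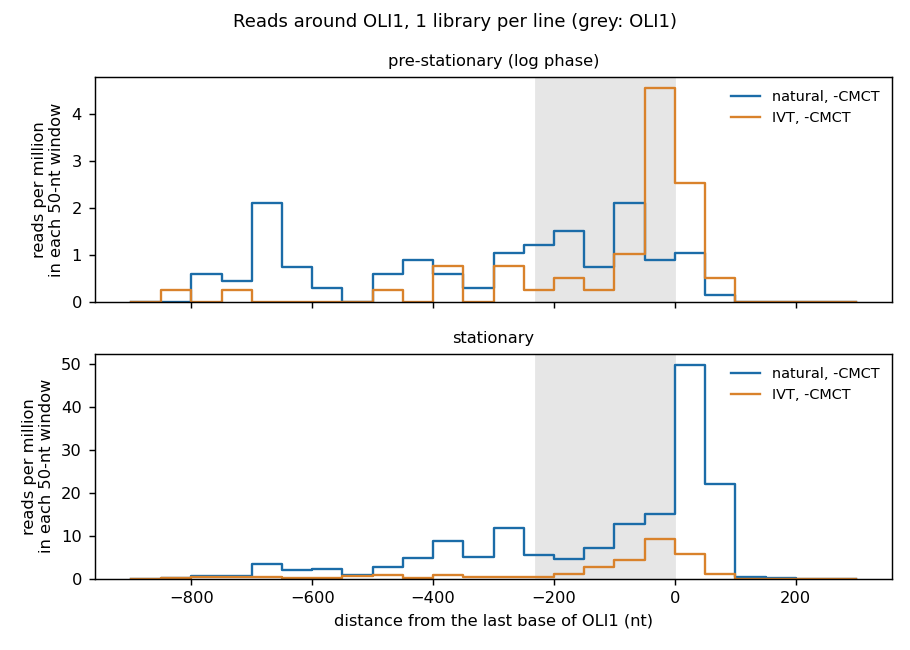
CPM in 50-nt windows around OLI1, by distance from its last base (nt), in pre-stationary and stationary -CMCT libraries; blue is natural RNA, orange is IVT RNA, and the grey band is OLI1. The stationary natural reads are highest in the 100 nt behind OLI1 (233 and 103 reads) and fall to 2 reads in the next window.

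COB (36540 to 43647) was cut at its intron reading frames in the same way. BI2, BI3 and BI4 are the frames of its introns, the last of them a maturase needed for splicing of COB and COX1. From the end of BI2 to the end of BI3 the stationary library had 65 reads and the pre-stationary one 2, a ratio of 46.3 (12.3 to 390). Up to the end of BI2 it was 5.70 (2.90 to 12.2), from BI3 to BI4 1.27 (0.425 to 3.70), and from BI4 to the end of COB 4.99 (1.57 to 20.8). The bin 39501 to 40000 in BI3 held 1, 2, 0 and 55 reads (6.32, SE 0.88), and it passed the minimum of 10 reads only through the stationary library. The library labelled heat shock had 86 COB reads against 7 in the one labelled pre-heat shock, a ratio of 4.73 (2.20 to 12.1), which was 1.12 (0.554 to 2.43) with CMCT. Of the 51 stationary natural -CMCT reads in RPM1, its last 3 windows of 50 nt held 12, 13 and 6.

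The 24 tRNA genes differed from the protein genes in the libraries that held their reads. The library labelled heat shock, natural -CMCT, had 307 reads in 18 of them, 28.9 CPM and 21.1% of its mitochondrial reads outside rRNA. The pre-stationary natural -CMCT library had 47 reads in 10 genes, 7.08 CPM and 9.36%. The other 14 libraries held 0.368 to 2.36 CPM and at most 1.67%. The same 2 libraries also had the highest levels of nuclear tRNA, 2297 and 2860 CPM, where the others had 140 to 830. The part of this difference between libraries in the mitochondrial tRNA values was not tested. The 3 mitochondrial tRNA genes with the most natural -CMCT reads were tF(GAA)Q with 96, tS(UGA)Q2 with 54 and tL(UAA)Q with 29, which decode phenylalanine, serine and leucine.

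Most of the tF(GAA)Q reads were at 1 position. In natural -CMCT RNA it had 0, 3, 93 and 0 reads in the order pre-heat shock, pre-stationary, heat shock and stationary, and 70 of the 93 lay at position 77466, 35 nt from the lower end of the gene (77431 to 77505). tS(UGA)Q2 had 0, 19, 29 and 6, and tL(UAA)Q 0, 4, 24 and 1. In the library labelled heat shock the tRNA share with CMCT was 0.040 of that without it (0.0235 to 0.0646), in pre-stationary 0.085 (0.0367 to 0.176) and in stationary 0.181 (0.0712 to 0.460), from 11 reads in each. The natural libraries labelled pre-heat shock had 2 tRNA reads each, 0.368 CPM with CMCT and 0.489 without. The stationary over pre-stationary ratio of tRNA reads was 0.333 (0.156 to 0.652), below 1 where the protein genes named above were above it or spanned it. Nuclear tRNA was also lower in stationary, at 572 CPM against 2860 in pre-stationary. With CMCT, nuclear tRNA in natural RNA stood at 469, 231, 830 and 244 CPM, against 797, 2860, 2297 and 572 without. The order is pre-heat shock, pre-stationary, heat shock and stationary.

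Outside annotated genes lay 4012 of the positions, with 48.0%, 34.9%, 35.7% and 33.4% of the natural -CMCT reads outside rRNA for pre-heat shock, pre-stationary, heat shock and stationary. IVT -CMCT RNA held 25.9% to 31.0% there. The stationary over pre-stationary ratio of these reads was 9.74 (8.30 to 11.5) without CMCT and 4.83 (4.42 to 5.29) with it, near or below that of all positions outside rRNA. Bins without a gene that were called higher in stationary included 47001 behind OLI1 and 82501 to 83000, with 7, 13, 26 and 89 reads (4.37, SE 0.76, adjusted p = 0.0318). Over the 162 bins, read counts of natural and IVT -CMCT RNA of the same experiment had Spearman correlations of 0.363, 0.483, 0.347 and 0.677 (pre-heat shock, pre-stationary, heat shock, stationary). Those of +CMCT and -CMCT natural RNA were 0.678, 0.476, 0.664 and 0.881. These describe bins of 1 genome that share libraries and base composition.

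Single positions were then compared between +CMCT and -CMCT natural RNA, the comparison by which PSI-seq looks for pseudouridine. Of the 103 positions with 20 or more natural reads, 9 had exactly 20, and 14 further positions had 19. Of the 103, 42 lay in COX1, 10 in OLI1, 3 in tRNA genes, 1 in RPM1 and 47 outside annotated genes, and 38 of those 47 lay between 46956 and 47016 behind OLI1. A median of 93.8% of their natural reads came from the stationary libraries, 30 had reads in stationary RNA alone, and 3 (11278, 66132 and 77466) reached 20 reads without it. The paper set its stationary data aside for lower technical quality, since known rRNA pseudouridines were less enriched there. None of the 103 was called in either direction by edgeR with the experiment as block, where 1.16% and 0.232% of the 445182 positions of the series were higher and lower with CMCT. At an unadjusted p under 0.05, 3 were higher and 2 lower, against 52597 and 10605 of all 445182 positions. By DESeq2 these counts were 0 and 1, against 22796 and 17297. The smallest adjusted p by edgeR was 0.190. The test of the +CMCT to -CMCT ratio in natural against IVT RNA called none of them either (0.00202% and 0.00606% of all positions), with a smallest adjusted p of 0.874. In that test 2 were higher and 0 lower at an unadjusted p under 0.05, against 15016 and 8744 of all positions.

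Natural reads in all 4 experiments were found at 10 of the 103 positions, and 1 of these was higher with CMCT in all 4. Position 47007, in the stretch behind OLI1, had 3, 6, 2 and 24 natural +CMCT reads and 0, 0, 1 and 0 natural -CMCT reads for pre-heat shock, pre-stationary, heat shock and stationary, and 0 or 1 read in every IVT library. The fitted log2 difference was 3.37 (SE 1.34, adjusted p = 0.190), so it did not pass over all positions. Its score, which is how far the log of +CMCT reads lies above the line fitted on the log of -CMCT reads in units of the residual SD, was 3.04, 2.54, 0.58 and 5.20, at the 87.3, 81.2, 32.8 and 99.6 percentile of the 445182 positions with 20 or more natural reads. Without the base and strand, whether it is a uridine cannot be told from the counts. The position with the most natural reads, 25342 in COX1, had 76 +CMCT and 58 -CMCT reads in stationary RNA and 10 or fewer in each of the other libraries (-0.89, SE 0.64, adjusted p = 0.565). Position 77466 in tF(GAA)Q had 4 +CMCT and 70 -CMCT reads in the library labelled heat shock (-2.45, SE 0.98, adjusted p = 0.191).

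**Figure D5:**
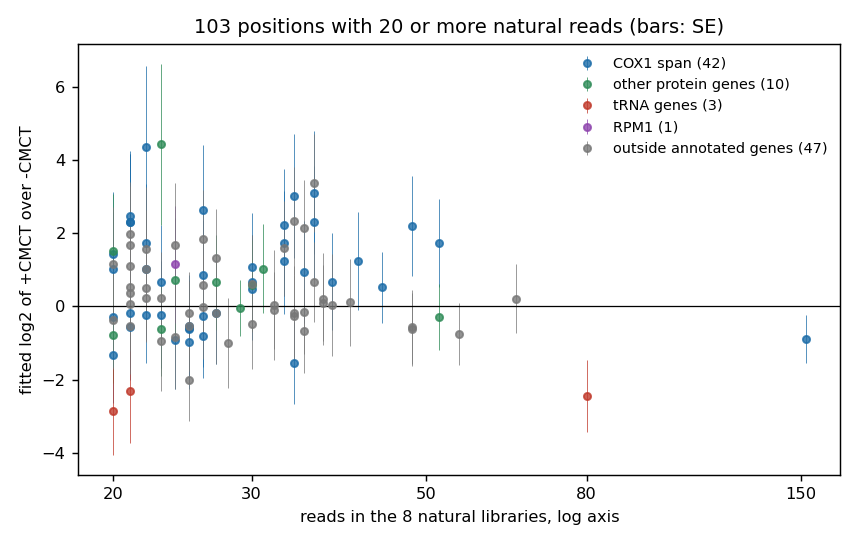
Fitted log2 difference of +CMCT over -CMCT reads in natural RNA against the reads in the 8 natural libraries (log axis) for the 103 mitochondrial positions with 20 or more natural reads; bars are SE, and colours give the annotation. Of the 103, 61 lie above 0 and none has an adjusted p under 0.05, with 0.190 the smallest. Their median is 0.374, where that of all 445182 positions is 0.380. With library sizes alone 42 lie above 0, and with DESeq2 27.

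The median score of the 103 positions was -0.26, -0.44 and -0.35 in natural RNA of the experiments labelled pre-heat shock, pre-stationary and heat shock, and 1.16 in stationary. Over the 445182 positions it was 1.09, 1.26, 1.12 and 0.90. With the line fitted over positions of at least 10 reads, the stationary values were -0.51 for the 103 and -0.96 for all. In IVT RNA the median of the 103 was -0.18, -0.28, -0.36 and -0.06. Every IVT median, and every natural one except the stationary, equals the score of a position with no read in either library. These medians therefore reflect a lack of reads and say nothing about stops with CMCT. The stationary value is that of the experiment whose +CMCT library was 25759455 reads deep and its -CMCT library 4662122.

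The nuclear genes whose products act with the mitochondrial ones were read from the same gene fits. None of the 9 genes of complex III, 9 of complex IV, 14 of ATP synthase and 17 of mitochondrial gene expression was called between growth conditions. In stationary against log phase, 3 of 9, 6 of 9 and 8 of 14 in the respiratory lists were higher at an unadjusted p under 0.05 and none lower, with medians of 1.85, 2.54 and 2.24 on the log2 scale against -0.10 over all genes, of which 8.06% were higher and 4.94% lower at that p. Among the 17 gene expression genes, 1 was higher, RPM2, the protein subunit of RNase P (2.84), and 2 were lower, PET122, an activator of COX3 translation (-4.36), and MSS116, a helicase that assists intron splicing (-2.14), with a median of -0.08. For the 8 mitochondrial protein genes and RPM1, of which 8 were tested, the corresponding count was 5 and the median 4.15, RPM1 included. In heat shock against log phase the 4 lists had medians of -0.19, 0.14, 0.03 and -0.14. Of the 49 nuclear genes in the lists, 4 were called between natural and IVT RNA, a share below the 6.23% higher and 7.38% lower over all genes together. Natural RNA was lower than IVT RNA for COX5A of complex IV (-1.01, adjusted p = 0.0475) and for ATP1 (-1.63, adjusted p = 0.0218) and ATP14 (-1.06, adjusted p = 0.0327) of ATP synthase, and higher for PET122 (1.97, adjusted p = 0.0136).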

How the data were processed

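The authors aligned reads to the yeast genome with Bowtie (0.12.5 in the submitters' processing notes, which name sacCer3), allowed at most 2 mismatches, assigned reads with several matches at random, and deposited raw counts per genome position for the 16 libraries. No deposited value is normalized. The deposited columns of the log-phase samples carry the name of the culture and no replicate number, so the numbers of the labels were not used. Positions were annotated by RefSeq gene spans of the same build (R64), which match by coordinate, have no exons here, and name every mitochondrial gene in the text. No genome sequence was used.

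Counts were summed over 500-nt bins and gene spans. Bins and genes with at least 10 reads and positions with at least 20 natural reads, of both genomes, were tested with edgeR 4.0.16 (quasi-likelihood, TMM, Benjamini-Hochberg over all features, adjusted p under 0.05), with DESeq2 1.42.0 as an alternative, in R 4.3.3, and shares with exact tests in SciPy 1.17.1. SE is the log2 difference over the square root of F. CPM and RPKM use library totals and the main edgeR fits use TMM, so their differences are on unlike scales. Natural against IVT used the -CMCT libraries with the experiment as block, because the 4 libraries of a growth condition were made and sequenced together. Deviations of the natural and IVT -CMCT libraries of an experiment correlated at 0.133, 0.489, 0.840 and 0.613 over 23904 bins (pre-heat shock, pre-stationary, stationary, heat shock). Pairs of different experiments reached 0.586 (pre-stationary natural with pre-heat shock IVT), so the pairing rests on the methods and not on this check. The pair labelled pre-heat shock also differed in heat shock transcripts. Without that experiment, the 6 higher and 3 lower mitochondrial bins were still called. Growth comparisons used the 4 natural -CMCT libraries. The rules for the genes, bins and positions named were all protein genes and RPM1, the 10 bins with the highest mean natural -CMCT level, the 3 tRNA genes with the most natural reads, and the positions with 1 direction in all 4 experiments. Bins, stretches and positions named beside those were chosen after their values were seen, as were the stretches of COX1 and COB and the 100 nt behind OLI1. Ratios have 95% exact counting intervals and shares 95% Wilson intervals, and both cover counting error only, since PCR reads are not independent molecules. The 2 log-phase samples and the samples taken on from them share cultures, so p-values measure only the spread between these libraries. The members and lists were chosen with earlier results of these data known. Reads that map to repeats could be misplaced: 10.5% of the 210 positions with 20 or more reads had 16 counts equal to those of another position, against 36.5% in the series.

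The edgeR fits were tested on simulated counts drawn from the means and library sizes of these libraries. Alternatives covered normalization, tool, filters, bin size, block, repeats and leaving out libraries.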

Additional observations from a re-analysis of the deposited data

Results flagged for a closer look

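The stationary library stood apart from the 3 others of its kind in the share of reads outside mitochondrial rRNA, both without CMCT in natural RNA, where its gap to the next library was 0.912 of the range of the 4 values, and with CMCT, where it was 0.983 (above Dixon's 95% critical value for 4 values, which chance passes in about 1 group in 20). The share of mitochondrial reads in tRNA genes, IVT +CMCT, was also flagged, with a gap of 0.902 of the range, set by 26 reads of 3180 in the library labelled heat shock against 0.314% to 0.363% in the others. In stationary RNA the natural share exceeded the IVT share by 0.94 on the log2 scale, while it was lower in the 3 other experiments, and this difference was not tested.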

How the results depend on the processing

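The direction of the natural minus IVT share difference was kept in every alternative, from -1.32 to -0.31, and was -0.76 with p = 0.25 in the exact paired test with the replicate block. The paired test and those that left out experiments could not reach 0.05. For bins of natural against IVT RNA (6 higher, 3 lower), the counts were 3 and 4 with DESeq2, 0 and 0 without the replicate block (950 higher and 856 lower of all bins at an unadjusted p under 0.05), 6 and 5 with positions of equal counts left out, and 12 and 2 without both experiments of the culture labelled heat shock. Leaving out 1 experiment gave 1 to 12 higher and 1 to 8 lower. Without the stationary experiment 1 of the 6 higher and all 3 lower bins were still called. For stationary against log phase, DESeq2 called 12 bins higher, 11 of them among the 26, summed +CMCT and -CMCT reads 56 of 123 (9.71% of all bins), and a minimum of 50 reads 0 of 25 (0% of all bins), where the median was 4.75 in place of 3.23. Most of those 25 bins reached 50 reads only through the stationary library. Library sizes alone called 29, with a median of all bins of -1.47 in place of -0.48 and of the mitochondrial bins of 2.23 in place of 3.23. For genes, natural against IVT called 2 higher and 3 lower with library sizes alone and 3 lower with the CMCT libraries summed, where COX2 was -0.26, COB -0.65 and ATP6 -0.31, reversed in sign and not called. DESeq2 called 7 of 28 mitochondrial genes higher in stationary (1.76% of all genes). Positions with and without CMCT gave 0 to 1 lower on leaving out 1 experiment (1 without pre-stationary and 1 without stationary). Without the replicate block 0 positions were called. The median score with the regression over positions of at least 10 reads was -2.41, -2.90, -1.93 and -0.51 (pre-heat shock, pre-stationary, heat shock, stationary), and 1.93 in stationary with 10 reads added. Outside stationary these medians are again the score of a position with no read in either library. The stationary over pre-stationary share ratio was 21.7 with positions of equal counts left out and 9.01 with CMCT, and the heat shock over pre-heat shock ratio 0.983 with CMCT, reversed, and 1.35 without tRNA genes. The settings without both experiments of 1 culture, and the settings of the share ratios between growth conditions, were chosen after seeing the data. The causes were not tested.

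Depth limits the positions: 3 of the 103 reached 20 natural reads without the stationary libraries. The lone libraries of heat shock and stationary leave their own spread unmeasured. Most natural reads here come from the stationary libraries, which the paper left out of its later work for lower technical quality.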
